A study of Mus musculus with 6 samples.

Results

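Rapamycin, an inhibitor of the mTORC1 kinase complex, was given to mouse kidney cells exposed to a combined metabolic and low-oxygen stress. The miRNAs of those cells were set against those of untreated cells. The comparison rests on 2 of the 6 arrays of the series, those titled Triple stimuli + Rapamycin and Control, with 1 array each, and covers all 1247 miRNAs on the array. The cells are mProx24, a proximal tubular line of C57B6 mouse origin grown in medium with fetal calf serum, so a difference between the arrays is a difference between single cultures of 1 line. The control culture was kept at 20% oxygen without high glucose, palmitate or rapamycin. The other culture was kept at 1% oxygen for 12 h in high glucose, received 150 µM palmitate bound to 0.15% bovine serum albumin for 9 h, and had 0.4 µg/ml rapamycin for the 12 h before palmitate. The glucose concentrations are not given in the sources used here, and the labels name albumin for palmitate cultures alone, so the fatty acid and its carrier cannot be told apart. The array titled Triple stimuli differs from it by rapamycin and is set beside it below. The labels name no vehicle for rapamycin, so the drug and any solvent cannot be told apart. No array with rapamycin alone was analysed here, so the comparison with the control carries the 3 stimuli and the drug together.

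A miRNA is a short RNA that guides Argonaute proteins to partly complementary messenger RNAs, mostly through its seed, bases 2 to 8, and lowers their translation or stability. Each hairpin precursor can yield 2 mature arms, 5p and 3p, of which one is often far more abundant. mTORC1 promotes protein synthesis and cell growth when nutrients and oxygen are ample, low oxygen and palmitate both act on it, and in the proximal tubule its activity is tied to nutrient overload and autophagy.

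Mature sequences of the miRNAs on which the results turn are given here to show their bases, with the seed in capitals. They come from RefSeq (GRCm38.p6), which held 7 of the 12 miRNAs that were called higher, 1 of the 3 called lower and 5 of the 6 that gave a bound, as defined below. The 7 called higher, in order of their difference, are:
miR-5126: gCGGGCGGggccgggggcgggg
miR-2861: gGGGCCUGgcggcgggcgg
miR-3102-5p: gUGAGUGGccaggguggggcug
miR-6538: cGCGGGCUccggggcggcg
miR-211-3p: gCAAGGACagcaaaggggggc
miR-2137: gCCGGCGGgagccccagggag
miR-125a-3p: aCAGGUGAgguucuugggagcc
The 1 called lower is:
miR-99b-3p: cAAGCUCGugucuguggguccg
The 5 with a bound are:
miR-210-3p: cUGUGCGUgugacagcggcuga
miR-135a-1-3p: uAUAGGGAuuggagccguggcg
miR-149-3p: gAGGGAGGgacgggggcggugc
miR-680: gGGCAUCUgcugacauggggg
miR-721: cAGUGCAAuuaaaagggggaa
No 2 of these 13 share a seed. The seed of miR-721, AGUGCAA, is also that of miR-130a-3p and miR-301a-3p, both of which were detected.

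By position, miR-5126 (chr1:84695890-84695911, plus strand) lies inside the span of Dner, 310 bases from the nearer boundary of that span. miR-6538 (chr12:26414970-26414988, minus strand) lies inside the span of Rnf144a, 331 bases from its nearer boundary. miR-3102-5p (chr7:100882388-100882409, minus strand) lies in Arhgef17, miR-211-3p (chr7:64205868-64205888, plus strand) in Trpm1, and miR-2137 (chrX:72992113-72992133, plus strand) in Zfp185. miR-2861 (chr2:32712819-32712837, minus strand) and miR-210-3p (chr7:141221407-141221428, minus strand) lie in no other annotated gene. miR-149-3p (chr1:92850421-92850442, plus strand) lies in Gpc1 and miR-721 (chr5:136375777-136375797, minus strand) in Cux1. miR-135a-1-3p (chr9:106154179-106154200, plus strand) lies in both Glyctk and the long non-coding RNA gene D030055H07Rik. miR-680 has 3 identical loci, on chromosomes 6, 12 and X, so its signal cannot be assigned to one of them. The gene table used here gives spans and not exons.

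Of the 1247 miRNAs, 198 were detected on at least 1 array, 164 in the control and 194 with triple stimuli plus rapamycin, the highest number of the 6 arrays. A miRNA was detected where at least 0.5 of the spots of one of its probes were well above background. Before scaling, the 75th percentile of the detected probes was 1.29-fold higher on the rapamycin array than on the control array, while the control spots of the array (named dmr) were 1.03-fold higher. Each array was scaled to that percentile, and the scaled intensity of the brightest probe is the level of a miRNA below, a value that can be compared between arrays for 1 miRNA and not between miRNAs. All 6 arrays were on 1 slide, and its 2 rows hold the arrays at 20% and at 1% oxygen, so slide row and oxygen cannot be told apart. In the deposited value table the columns for high glucose and palmitate match each other's scanner files, so those arrays are called "labelled high glucose" and "labelled palmitate" here. For the 2 arrays of the comparison, the table and the scanner file of the same title match.

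The cell line was checked against marker miRNAs of the kidney and of other tissues. Of 12 kidney and proximal tubule markers 7 were detected on both arrays, miR-10a-5p, miR-10b-5p and the 5 members of the miR-30 family, and miR-192-5p, miR-194-5p, miR-204-5p, miR-215-5p and miR-146b-5p were not detected on any array. Summed over the detected markers, a total that the brighter probes weigh most in, the signal was 1619 in the control and 1432 with rapamycin. Their median log2 difference was -0.22, and it turned to 0.15 with no scaling and 0.11 with the control spots. The median over all miRNAs detected on both arrays moved alike, from -0.11 to 0.26 and 0.22. The epithelial miR-200 family (7 on the array) and the markers of blood (5), endothelium (2) and fibroblasts or smooth muscle (5) were not detected on either array. Of 6 markers of muscle, neurons and hepatocytes on the array, only 1 was detected on any of the arrays. It was miR-206-3p, best known from skeletal muscle, at 108 in the control and 98.2 with rapamycin.

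Most miRNAs differed little between triple stimuli plus rapamycin and the control. Of the 164 detected on both arrays, 112 (68.3%) were within 1.2-fold of each other, 12 were called higher with rapamycin and 3 lower, and 149 were neither. The highest was miR-5126, 4.06-fold above the control, and the lowest miR-712-5p, 1.85-fold below it. A call needed a difference of at least 1.5-fold that was also more than 2 spot SE, the standard error from the spots of a probe within each array. The calls made up 7.32% of the 164 for higher and 1.83% for lower. The median log2 difference over the 164 was -0.11, with quartiles of -0.23 and 0.02, and 48 differences were positive against 116 negative. With 1 array per condition there is no replicate check and no test. The spot SE says nothing of the spread between cultures.

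How the arrays are scaled moved the balance of higher and lower calls. It was 12 to 3 as above, 10 to 11 with each array set to its median, 10 to 7 with quantile normalisation, 18 to 0 with the control spots and 19 to 0 with no scaling. The median over all miRNAs was 0.26 with no scaling and 0.22 with the control spots. In the authors' deposited table the split was 12 to 7. All 12 miRNAs called higher were also above the control under each of these settings.

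**Figure D1:**
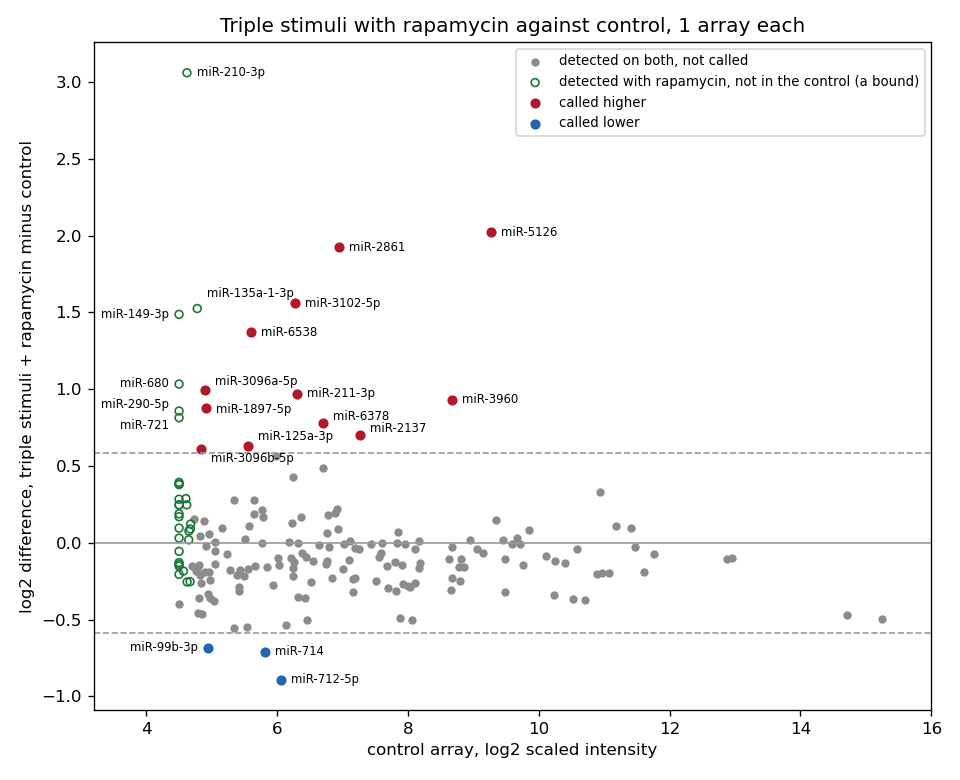
Log2 difference between the triple stimuli plus rapamycin array and the control array (vertical) against the control's log2 scaled intensity (horizontal), for the 194 miRNAs detected with rapamycin, 1 array each. Dashed lines mark 1.5-fold, filled red and blue points are the 12 higher and 3 lower calls, and green circles are the 30 miRNAs not detected in the control, whose difference is a bound. The called miRNAs stand at low and middle control levels, and the 2 points farthest to the right lie below 0.

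The marker of low oxygen, miR-210-3p, is the miRNA best known as a direct target of hypoxia-inducible factor, and it lowers mitochondrial respiration through proteins of iron-sulphur cluster assembly. It was not detected in the control, where its level was 24.7, nor on the array labelled palmitate, where it lay at the limit of 23.2. The array labelled high glucose gave 24.1, at the edge of detection. It stood at 206 with triple stimuli plus rapamycin, 219 with triple stimuli and 260 with hypoxia. The 3 arrays at 1% oxygen lay far above the 3 at 20%, with no overlap. With rapamycin it was 8.34-fold above the control's own signal, which was not detected (log2 3.06, spot SE 0.11). The log2 value against that signal was 3.15 for triple stimuli without rapamycin and 3.40 for hypoxia. Both of its probes were well above background on all spots of the rapamycin array, and their log2 differences were 3.06 and 3.02. With normexp background correction, whose offset compresses low signals, the fold over the control was 2.74. The other alternatives gave 6.76-fold to 10.8-fold. The difference between the rapamycin and triple stimuli arrays was smaller than 1.5-fold, and miR-210-5p, the other arm, was not detected on either array of the comparison.

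The largest measured differences were in 4 miRNAs that were above 2-fold with rapamycin, miR-5126, miR-2861, miR-3102-5p and miR-6538. miR-5126 read 616 in the control, 641 on the array labelled palmitate, 782 with hypoxia, 1615 with triple stimuli, 2501 with triple stimuli plus rapamycin and 3566 on the array labelled high glucose. It was 4.06-fold above the control with rapamycin (log2 2.02, spot SE 0.01). miR-2861, known from bone-forming cells, where it lowers the histone deacetylase HDAC5, read 123, 130, 153, 306, 468 and 633 on the same arrays in the same order, a 3.79-fold difference with rapamycin (log2 1.92, spot SE 0.03). For both, the control, palmitate-labelled and hypoxia arrays lay close together, and the triple stimuli, rapamycin and high glucose-labelled arrays lay above them in that order.

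miR-3102-5p showed the same order of arrays. It read 77.9 in the control, 81.8 on the array labelled palmitate, 106 with hypoxia, 167 with triple stimuli, 230 with rapamycin and 338 on the array labelled high glucose, which is 2.95-fold with rapamycin (log2 1.56, spot SE 0.03). miR-6538 read 48.6 in the control, 47.3 with hypoxia, 49.3 on the array labelled palmitate, 95.0 with triple stimuli, 126 with rapamycin and 133 on the array labelled high glucose. Its difference with rapamycin was 2.58-fold (log2 1.37, spot SE 0.05). These 4 were called higher under all 19 alternative settings tried, among them a 2-fold limit and normexp.

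A further 8 miRNAs were between 1.5-fold and 2-fold above the control. miR-3960, which shares a primary transcript with miR-2861 in bone-forming cells, read 407 in the control, 656 with triple stimuli and 776 with rapamycin, a 1.90-fold difference (log2 0.93, spot SE 0.01). Hypoxia gave 388, the array labelled palmitate 460 and the array labelled high glucose 841, so 3 arrays lay at 388 to 460 and 3 at 656 to 841. miR-211-3p, the 3p arm of a hairpin in Trpm1, read 79.3 in the control, 132 with triple stimuli and 155 with rapamycin (log2 0.97, spot SE 0.03). Its 5p arm, known from melanocytes, was not detected on either array. miR-2137 read 155, 207 and 252 on the same 3 arrays (log2 0.70, spot SE 0.03). Its other probe, with all spots above background on both arrays, gave 0.41, inside the 1.5-fold limit. miR-6378 read 105, 164 and 180 (log2 0.78, spot SE 0.04). Its other probe had no spots above background on either array, so this call rests on the brightest probe alone. For these 4 the array labelled high glucose was again the highest of the 6, at 197 for miR-211-3p, 294 for miR-2137 and 282 for miR-6378.

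The remaining 4, miR-3096a-5p, miR-1897-5p, miR-125a-3p and miR-3096b-5p, were highest of all 6 arrays with rapamycin. miR-3096a-5p read 29.8 in the control, 27.5 with hypoxia, 43.1 labelled palmitate, 43.4 labelled high glucose, 47.7 with triple stimuli and 59.4 with rapamycin (log2 0.99, spot SE 0.08). miR-1897-5p read 30.1, 29.4, 43.6, 51.9, 47.7 and 55.3 in that order of arrays (log2 0.88, spot SE 0.07). These levels stand close to the lowest detected signal of the arrays, 22.7 in the control and 17.2 with rapamycin. miR-3096b-5p, nearly at the 1.5-fold limit, read 28.7 in the control, 42.0 with triple stimuli and 43.8 with rapamycin (log2 0.61, spot SE 0.08). Its other probe did not meet the detection rule on either array, so this call too rests on the brightest probe alone. For miR-1897 and miR-3096b the array also detected the 3p arm, with log2 differences of -0.04 (spot SE 0.04) and -0.34 (spot SE 0.02). The first lay about 1 spot SE from 0, neither 3p arm was called, and with no scaling they stood at 0.33 and 0.03.

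miR-125a-3p and the lower miR-99b-3p come from 1 cluster. Mir99b, Mirlet7e and Mir125a lie within 661 bases of each other on chromosome 17, inside Spaca6, and their 5p arms are the abundant ones. miR-125a-3p (chr17:17830855-17830876, plus strand) read 47.4 in the control, 63.0 with triple stimuli and 73.2 with rapamycin, 1.55-fold above the control (log2 0.63, spot SE 0.08). Its 4 probes gave log2 differences from 0.63 to 2.04, all positive, and 1 of the 4 was not above background in the control. miR-99b-3p (chr17:17830232-17830253, plus strand) read 30.8 in the control, 25.2 with triple stimuli and 19.2 with rapamycin, 1.60-fold below the control (log2 -0.68, spot SE 0.15). With rapamycin exactly the 0.5 of its spots that the detection rule asks for were above background, against 80.0% in the control. The 5p arms of the cluster were near the control, with log2 differences of -0.16 (spot SE 0.04) for miR-125a-5p, -0.01 (spot SE 0.03) for let-7e-5p and -0.29 (spot SE 0.03) for miR-99b-5p. Of the 4 probes of miR-99b-3p 1 met the detection rule, and the other 3 ran from -0.70 to 0.85 with at most 10% of spots above background, so its call rests on 1 probe. The call was lost under 8 of the 19 alternatives, and that of miR-125a-3p under 5.

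**Figure D2:**
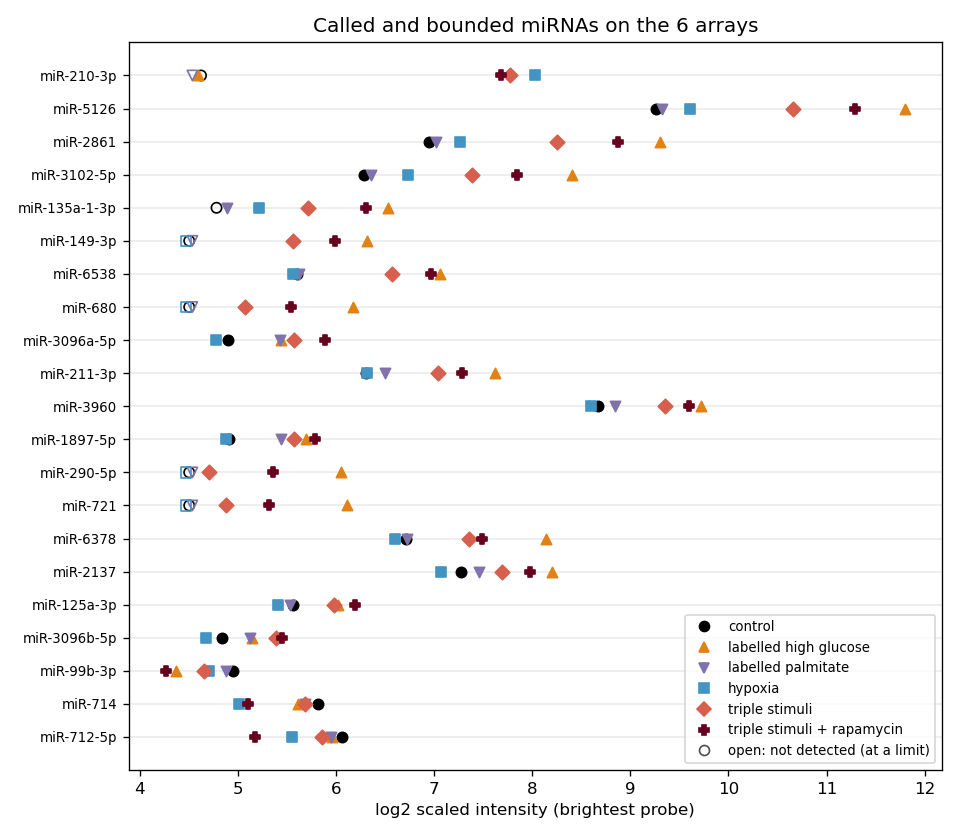
Log2 scaled intensity of the brightest probe (horizontal) for the 12 higher, 3 lower and 6 bounded miRNAs (vertical, ordered by the difference between triple stimuli plus rapamycin and control) on the 6 arrays, 1 array per symbol, open where not detected. For miR-210-3p the 3 arrays at 1% oxygen stand apart, for 8 of the 12 higher miRNAs the array labelled high glucose is the highest, and for the other 4 it is the rapamycin array.

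The other lower calls were miR-712-5p and miR-714, from the list of miR-712 and its neighbours in the ribosomal RNA precursor. miR-712-5p, which in mouse endothelium is produced from that precursor and lowers TIMP3, read 67.0 in the control, 62.1 labelled high glucose, 62.0 labelled palmitate, 58.0 with triple stimuli, 46.9 with hypoxia and 36.1 with rapamycin (log2 -0.89, spot SE 0.08). The rapamycin array was the lowest of the 6. miR-714 read 56.3 in the control, 51.5 with triple stimuli, 32.3 with hypoxia and 34.4 with rapamycin (log2 -0.71, spot SE 0.11). It was therefore about as low with hypoxia alone. The third detected member of the list, miR-5105, differed by -0.10 (spot SE 0.01), so 2 of its 3 detected members were called lower, against 1.83% of all miRNAs. The list was chosen with earlier results of these data known, so this count is only a description. Of the 4 probes each, 2 of miR-712-5p and 2 of miR-714 gave a difference below 0, and the remaining probes did not meet the detection rule on either array. None of the 3 lower calls was kept under 6 of the 19 alternatives, which were no scaling, the control spots, normexp, the software's summed signal, the mean over all probes and a 2-fold limit.

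Just inside the 1.5-fold limit lay miR-3096b-5p (log2 0.61), miR-125a-3p (0.63) and miR-99b-3p (-0.68). Just outside it lay miR-1895 (0.57), miR-181b-5p (-0.55) and miR-212-3p (-0.55).

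A further 30 miRNAs were detected with triple stimuli plus rapamycin and not in the control, and 0 in the control alone. Detection was judged before scaling, where the rapamycin array had the highest 75th percentile of the 6 arrays, 1.29-fold above the control. The part of this brightness in the split was not tested. For these the control gives only a limit, and the fold is a bound against the higher of the miRNA's own control signal and the lowest detected signal there. For 6 of the 30 (20.0%) the bound was at least 1.5-fold: miR-210-3p, described above, miR-135a-1-3p, miR-149-3p, miR-680, miR-290-5p and miR-721. The other 24 read at most 29.8 with rapamycin, against a lowest detected control signal of 22.7. Of the 30, 25 were also detected on the array labelled high glucose, 23 with triple stimuli, 10 with hypoxia and 6 on the array labelled palmitate. The 3 detected with rapamycin and on no other array, miR-1306-3p, miR-181a-5p and miR-3092-3p, read 20.6, 20.8 and 19.7, below the control's limit.

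Among the 6, miR-135a-1-3p, the less abundant arm of its hairpin, read 27.5 in the control, 29.7 labelled palmitate, 37.1 with hypoxia, 52.5 with triple stimuli, 79.3 with rapamycin and 92.3 labelled high glucose. It was 2.88-fold above the control's own signal, which was not detected, with rapamycin (log2 1.53, spot SE 0.16). miR-149-3p was at the limit in the control, in hypoxia and on the array labelled palmitate, and read 47.3 with triple stimuli, 63.7 with rapamycin and 79.7 labelled high glucose, at least 2.80-fold (log2 1.49). Its partner miR-149-5p was detected throughout and differed by -0.28 (spot SE 0.06). With no scaling that difference was 0.09 and with the control spots 0.05, so its side of the control depends on the scaling.

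miR-680, miR-290-5p and miR-721 followed the same order of arrays at lower levels. miR-680 read 33.6 with triple stimuli, 46.5 with rapamycin and 72.0 labelled high glucose, at least 2.05-fold above the control with rapamycin. miR-290-5p, from a cluster known from embryonic stem cells, read 26.1, 41.2 and 66.6, at least 1.81-fold, and was the 1 member of that cluster detected among 11 on the array. miR-721 read 29.5, 39.9 and 69.2, at least 1.76-fold. The 2 detected miRNAs that share its seed, miR-130a-3p and miR-301a-3p, differed by -0.13 (spot SE 0.03) and -0.17 (spot SE 0.14). The count of 6 bounds varied from 1 with normexp to 17 with a laxer detection rule.

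Triple stimuli without rapamycin, set against the same control array, called 9 of 161 miRNAs higher (5.59%) and 0 lower (0.0%). As both comparisons use 1 control array, values are given side by side and no agreement between them is taken as a result. All 9 were also called with rapamycin, and the 3 of the 12 that were not called without it, miR-2137, miR-125a-3p and miR-3096b-5p, had log2 differences of 0.42, 0.41 and 0.55 there. For miR-5126 the difference from the control was 1.39 without and 2.02 with rapamycin, for miR-2861 1.31 and 1.92, for miR-3102-5p 1.10 and 1.56, and for miR-6538 0.97 and 1.37. For miR-712-5p it was -0.21 without and -0.89 with rapamycin, for miR-714 -0.13 and -0.71, and for miR-99b-3p -0.29 and -0.68.

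**Figure D3:**
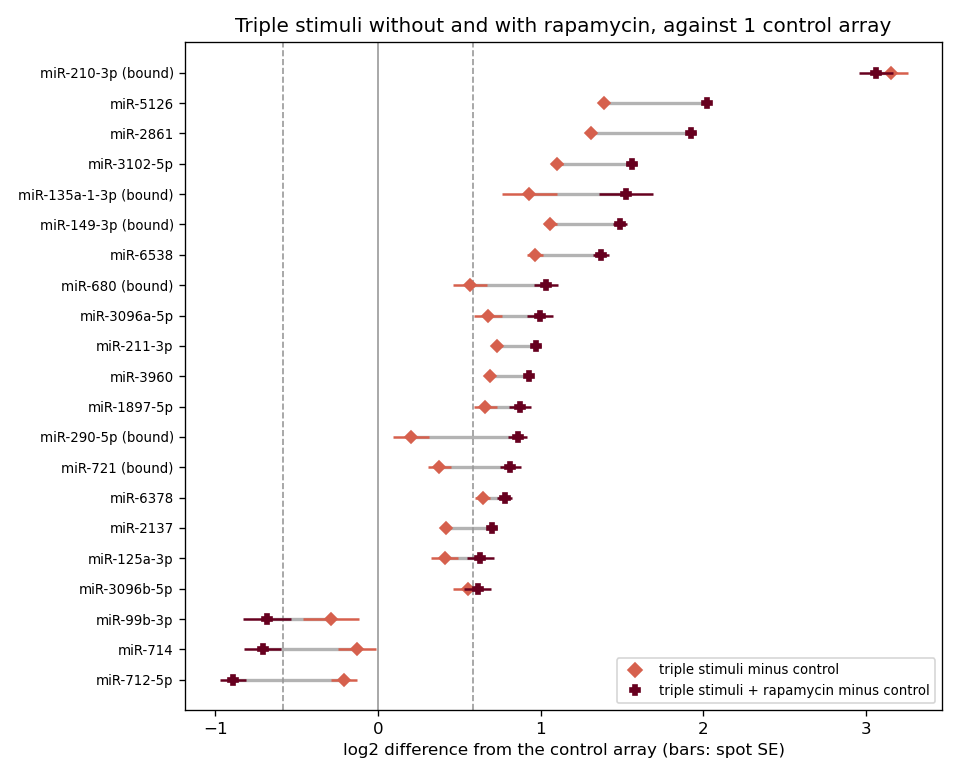
Log2 difference from the 1 control array (horizontal) without rapamycin (diamonds) and with it (crosses) for the 21 called or bounded miRNAs (vertical), with bars for the spot SE and dashed lines at 1.5-fold. For 20 of the 21 the value with rapamycin is farther from 0 than the value without it; miR-210-3p, at 3.06 and 3.15, is the exception. The 21 were chosen with the rapamycin array and both values share the control array, so the count is a description that the choice favours.

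Directly between the 2 stimulated arrays, 4 of the 184 miRNAs detected on both were called higher with rapamycin (2.17%) and 3 lower (1.63%). The 4 were miR-290-5p at 0.66, miR-5126 at 0.63, miR-2861 at 0.61 and miR-135a-1-3p at 0.59 (log2), each past 2 spot SE. The 3 were miR-712-5p (-0.68, spot SE 0.08), miR-5100 (-0.66, spot SE 0.01) and miR-19a-3p (-0.60, spot SE 0.05), of which miR-5100 was named after its values were seen. These calls were made at the main scaling alone, and the limit is 0.58 in log2. The median over the 184 moved from -0.07 to 0.07 with no scaling and to 0.16 with the 75th percentile over all miRNA probes. An upward shift of that size takes the 3 lower differences inside the limit. miR-5100 read 1471 in the control, 1803 with triple stimuli and 1142 with rapamycin. miR-19a-3p, a member of the growth-promoting miR-17/92 cluster, read 43.5, 58.3 and 38.5. Both were thus above the control with triple stimuli and below it with rapamycin, by less than 1.5-fold each way. The side of the control with rapamycin depends on the scaling, since with none miR-19a-3p stood at 0.20 and miR-5100 at 0.01 (log2).

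All 12 miRNAs called higher against the control were also above the triple stimuli array, by log2 0.06 to 0.63, and 11 of them by more than 2 spot SE. Over all 184, 25.5% were above it and the median was -0.07. This background depends on the scaling, since the median was 0.07 with no scaling and 0.03 with the control spots. It was 0.16 with the 75th percentile over all miRNA probes. The 12 were chosen with the rapamycin array, which also enters this difference, so the count is a description. The count was 11 with normexp and 10 with the mean over all probes. The order rapamycin, triple stimuli, control thus held for all 12 at the main setting, while 8 of the 12 were higher still on the array labelled high glucose, which had neither low oxygen nor rapamycin.

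Of the miRNAs called higher, the 7 with a RefSeq sequence were rich in G and C. Over the 135 miRNAs detected on both arrays with a RefSeq match, the median was 48.0% G or C, and over the 7 matched higher ones it was 85.7%, from 59.1% to 100.0%. The 5 matched bounds ran from 42.9% for miR-721 to 81.8% for miR-149-3p, and the other 5 higher calls have no sequence here. Of 9 matched miRNAs with at least 70% G or C, 5 were called higher, with a median log2 difference of 0.70, and 0 were called in either direction among the 22 below 40% and the 46 from 40% to under 50%. A run of 4 G (GGGG, searched on the mature strand) was in 5 of the 7 higher, 3 of the 5 matched bounds and 17 of the 135 (12.6%), against 11.2% of 1679 mature sequences in RefSeq. Over all 135, the difference and the share of G or C were nearly unrelated, with a Spearman rho of 0.03 across miRNAs that share both arrays. The probes of the higher set had 9 to 19 bases, with a median of 13, against 14 for the 3 lower calls and 17 over all 164. In G or C they ran from 42.1% to 100.0%, with a median of 74.2%. That median was 84.6% for the lower calls and 52.9% over all 164. Of 19 miRNAs whose probe had at least 70% G or C, 7 were called higher and 2 lower, against 7.32% and 1.83% of all 164. The part of base composition and probe length in these differences was not tested.

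**Figure D4:**
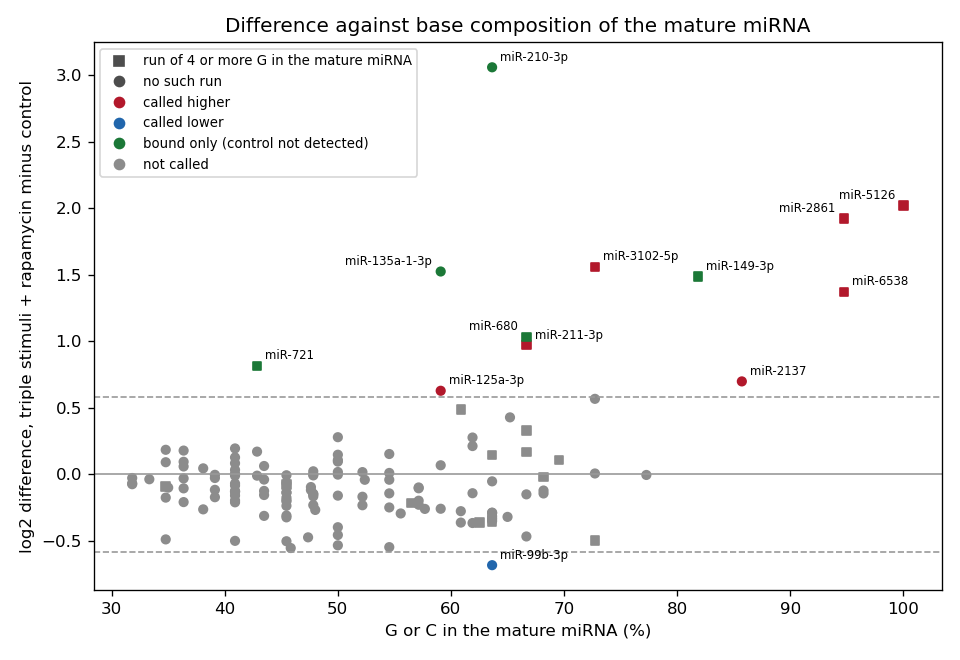
Log2 difference between triple stimuli plus rapamycin and control (vertical) against the percentage of G or C in the mature miRNA (horizontal) for miRNAs with a RefSeq match, 1 array each. Squares hold a run of 4 or more G, colours mark the calls, and 5 of the 9 miRNAs detected on both arrays with at least 70% G or C lie above the dashed 1.5-fold line.

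By number in the miRBase register, which follows the order of discovery, 10 of the 48 miRNAs whose number has 4 digits were called higher and 0 lower. Of the 116 with a shorter number or named let-7, 2 were called higher and 3 lower. The 2 are arms of well-known hairpins, miR-211-3p and miR-125a-3p.

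No listed member of the well-known families was called at the main scaling. The list of miRNAs reported to target the mTOR pathway holds miR-99b-5p and miR-125a-5p, and not the 3p arms that were called. With 7.32% called higher and 1.83% lower over all 164, 0 calls in lists of 2 to 13 is near the background and says little of the lists. Under other settings some members were called lower, miR-30e-5p and miR-181b-5p under 4 of the 19 alternatives each, miR-212-3p under 2 and miR-29b-3p under 1, all of them with each array set to its median. Their log2 differences there were -0.61, -0.67, -0.66 and -0.60. Among low-oxygen responsive miRNAs other than miR-210-3p, 0 of 13 were called, with a median log2 difference of -0.09 against -0.11 over all 164, from -0.55 for miR-181b-5p to 0.13 for miR-322-5p. miR-21a-5p, widely known from injured and fibrotic kidney, read 2728 in the control, 3306 with triple stimuli and 2914 with rapamycin (log2 0.10, spot SE 0.03). miR-155-5p, an inflammatory miRNA, read 189, 193 and 177.

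Among miRNAs reported to target the mTOR pathway, 0 of 8 were called and the median was -0.15. They ran from -0.29 (spot SE 0.03) for miR-99b-5p, of the family that represses mTOR itself, to 0.11 (spot SE 0.03) for miR-125b-5p. miR-7a-5p, which represses several components upstream of mTOR, read 122 in the control, 159 with triple stimuli and 130 with rapamycin. In the miR-17/92 cluster and its copies 0 of 10 were called, with a median of -0.01, and miR-25-3p was the highest (0.15) and miR-19a-3p the lowest (-0.17).

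The let-7 family, which restrains growth genes such as Myc and Ras, had 0 of 9 called and a median of -0.08, from -0.20 for let-7b-5p to -0.01 for let-7e-5p. The miR-30 family, abundant in kidney epithelium, had 0 of 5 called but the lowest median of these families, -0.31, with miR-30e-5p at -0.50 and miR-30b-5p at -0.01. The miR-29 family, which represses collagens, had 0 of 3 called. Within it miR-29b-3p read 236 in the control, 233 with triple stimuli and 168 with rapamycin (log2 -0.49, spot SE 0.03), and miR-29c-3p read 110, 128 and 125 (0.18, spot SE 0.07). The sign of these family medians depends on the scaling. With no scaling and with the control spots the let-7 median was 0.29 and 0.24, that of the miR-30 family 0.06 and 0.02, that of the mTOR list 0.22 and 0.17, and that of the low-oxygen list 0.28 and 0.24.

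The other lists had 0 called. The miR-23/27/24 clusters had 5 members detected on both arrays (median -0.12), from -0.25 for miR-24-3p to -0.04 for miR-27a-3p. The miR-15/16 family had 4 (0.01), from -0.13 for miR-15a-5p to 0.13 for miR-322-5p. Those of the Hox clusters, which carry positional identity, had 4 (-0.14), from -0.32 for miR-196b-5p to -0.04 for miR-10a-5p. The renal fibrosis list had 6 (0.05), the p53 and apoptosis list 4 (-0.07), with miR-34a-5p at 0.02 and miR-107-3p at -0.16, and lipid and glucose metabolism 9 (-0.07), with miR-7a-5p at 0.09 and miR-103-3p at -0.23. In the inflammation list of 3 (-0.14), miR-212-3p, which is induced with its neighbour by CREB, read 46.6 in the control, 43.5 with triple stimuli and 31.9 with rapamycin (log2 -0.55, spot SE 0.08). The imprinted Dlk1-Dio3 cluster had 2 detected of 33 on the array, miR-494-3p (-0.19) and miR-370-3p (-0.02), and the Sfmbt2 cluster 3 of 27, with miR-466h-3p at -0.19 and miR-467f at 0.05.

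The 5 brightest probes of the rapamycin array, an order of signal and not of abundance, were those of miR-6366, miR-3963, miR-5109, miR-6243 and let-7f-5p. miR-6366 read 38771 in the control, 35389 with triple stimuli and 27447 with rapamycin (log2 -0.50, spot SE 0.02), and miR-3963 read 26834, 23711 and 19336 (-0.47, spot SE 0.11). Neither reached 1.5-fold at this setting, and 0 spots were saturated. Both were called lower with each array set to its median (-0.61 and -0.59) and with outlier spots kept (-0.59 and -0.60), and miR-3963 also in the authors' deposited table (-0.69). Quantile normalisation, which sets equal ranks to equal values, gave 0.0 for both. The other 3 differed by -0.10, -0.10 and -0.07.

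**Figure D5:**
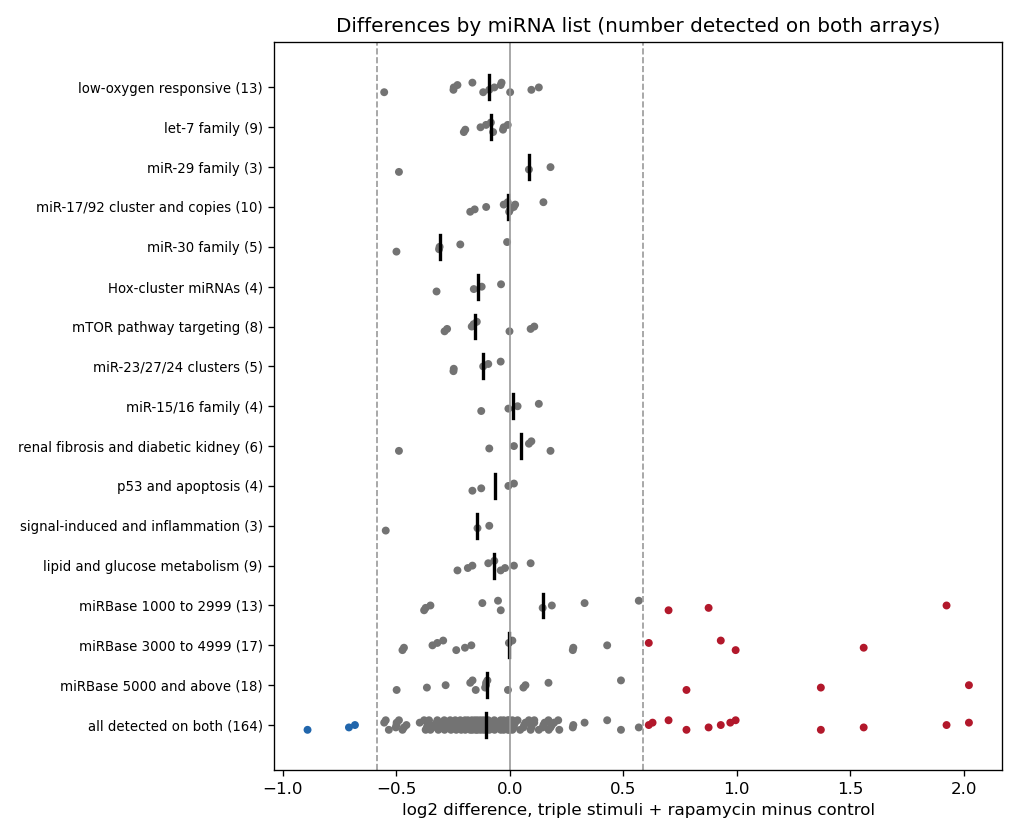
Log2 difference between triple stimuli plus rapamycin and control (horizontal) for each miRNA detected on both arrays, by list (vertical, number of miRNAs in brackets), 1 array each. Bars mark medians, dashed lines 1.5-fold, and coloured points the calls; the 13 lists of well-known families and pathways, drawn at the top, stay between the dashed lines at the main scaling.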

How the data were processed

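Per the labels, 100 ng of total RNA per culture was 3' end-labelled with 1 dye (Cy3) and hybridised to Agilent mouse miRNA arrays. The deposited scanner files hold the intensity of each spot on a linear scale, from which the scanner software, Agilent Feature Extraction 10.7.3.1 per the submitters' processing notes, had subtracted background, with no normalisation between arrays. The authors' deposited value table holds a linear signal per miRNA. It equals the software's summed signal divided by 1 factor per array, within 0.1%, for 68.7% of the miRNAs compared in the control column and 73.5% in the rapamycin column. The choice of that factor is not stated in the sources used here. The table is not centred and served as an alternative.

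The spots of a probe that were not flagged as outliers were averaged (median of 20 spots per probe, 3105 probes). The scale of an array was set by the 75th percentile of the 281 probes that all 6 arrays detected, values under the lowest detected signal were raised to it, and log2 was taken. The brightest of the 1 to 4 probes stood for a miRNA. 1 of the 164 miRNAs compared, let-7b-3p, was detected through another probe and lay at the floor on both arrays, so its difference has no order. The members and lists were chosen with earlier results of these data known. Named are all called miRNAs, the 6 bounds of at least 1.5-fold, miR-210-3p and miR-21a-5p. The highest and lowest member of each list, 3 miRNAs on each side of the 1.5-fold limit and the 5 brightest are named too. Python 3.11.15, R 4.3.3 and limma 3.58.1 (normexp, offset 50) were used. The spread between spots was 8.67% to 10.7% (median CV per array), and 1 array per condition limits every comparison.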

Additional observations from a re-analysis of the deposited data

How the results depend on the processing

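Against 12 higher and 3 lower calls and 6 bounds of at least 1.5-fold, no scaling gave 19 higher, 0 lower and 14 bounds, and moved the median from -0.11 to 0.26. Scaling to the control spots gave 0 lower, 11 bounds and a median of 0.22. Scaling to the median gave 11 lower and a median of -0.22, and quantile normalisation 7 lower. Normexp gave 5 higher, 0 lower and 1 bound. The software's summed signal gave 0 lower, 13 bounds and a median of 0.020, and the mean over all probes 3 bounds and 1 lower, miR-30e-5p, with none of the 3 kept. The authors' deposited table gave 7 lower and 14 bounds, and keeping outlier spots 5 lower. Asking for 0.1 of the spots above background gave 24 higher, 6 lower, 17 bounds and 2 miRNAs with a bound in the control alone, the software's detection 2 bounds, and a 2-fold limit 4 higher and 0 lower. The causes were not tested. miR-5126, miR-2861, miR-3102-5p, miR-6538 and the bound of miR-210-3p were called in all 19 alternatives. miR-3960 lost its call under the 2-fold limit alone, miR-3096b-5p under 7 alternatives, miR-125a-3p under 5, miR-712-5p under 7, miR-714 under 6 and miR-99b-3p under 8. The call or bound of miR-721 was lost under 5, of miR-2137 under 4, and of miR-6378 and miR-290-5p under 3 each. Those of miR-1897-5p, miR-211-3p, miR-3096a-5p, miR-135a-1-3p and miR-149-3p were lost under 2 each, and that of miR-680 under normexp alone. No call of a named miRNA changed direction. Signals near the floor of 22.7 in the control and 17.2 with rapamycin limit the bounds. No paired analysis was possible because each condition has 1 array.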
